A study of Mus musculus with 4 samples.

Results

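The genes described are adhesion receptors of the cadherin and immunoglobulin families, chosen by symbol: Cdh2, Cdh4, Cdh11, Cdh13, Cdh15, Ncam1, Jam2, Jam3, Cdon and Boc. These are 10 of the 49585 genes in the count files. Their mRNA was counted by strand-specific sequencing of C2C12, a mouse myoblast line of strain C3H that forms myotubes when serum is lowered. All cells carried a retroviral insert and had been selected as pools with G418 (1200 µg/ml, 7 days). They were left to proliferate for 2 days and differentiated for 2 days in 2% horse serum. Growth was in 10% FBS (fetal bovine serum), and a confluency of 90% is given for every library. In 2 libraries the vector was empty, and in the other 2 it carried a C/EBPβ insert, C/EBPβ being a transcription factor with a leucine zipper, so that the comparison asks how extra C/EBPβ changes differentiating myoblasts. Whether the 2 libraries of each kind are separate cultures is not given by the labels, so the p-values reflect only how far these libraries differ, and part of that may be technical.

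Classical cadherins are transmembrane proteins tied to the actin cytoskeleton through catenins. They bind mainly the same cadherin on a neighbouring cell in the presence of calcium. Adhesion molecules of the immunoglobulin family do the same work without calcium. In myoblasts both kinds of receptor hold cells together before they fuse, and Cdon and Boc, which bind cadherins at the cell surface, are known to promote differentiation from these contacts. Cdon and Boc are also co-receptors of Hedgehog ligands.

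The libraries held between 36461091 and 51537847 fragments assigned to genes. Cebpb stood at 42.7 and 41.3 CPM (fragments per 1000000 of the TMM-scaled library total) in the empty-vector libraries and at 502 and 442 CPM in the overexpressing ones, as labelled. Markers of muscle were present in every library, among them Acta1, skeletal actin, at 6258 and 6829 CPM in the controls and 1586 and 2878 CPM in the overexpressing cells.

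Of the 10 receptors, 5 fell and 2 rose in the overexpressing cells, 2 did not pass the test, and Cdh4 had no fragment in any library. Cdh15, Cdh2, Cdh13, Ncam1 and Jam2 fell, by 1.44-fold to 3.01-fold. Cdh11 and Boc rose, 6.50-fold and 7.85-fold. The 7 that passed are to be read against a background of 43.2% of 15886 genes tested that passed in either direction, 22.3% higher and 20.9% lower (edgeR's quasi-likelihood test with Benjamini-Hochberg adjustment, threshold 0.05). The median log2 fold change was -0.53 over the 9 tested receptors and 0.01 over all genes tested. The groups did not overlap for 8 of the 9, as was the case for 75.1% of all genes tested. Every tested receptor held at least 239 fragments in each library, so that none passed the filter on low counts through 1 group alone.

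**Figure D1:**
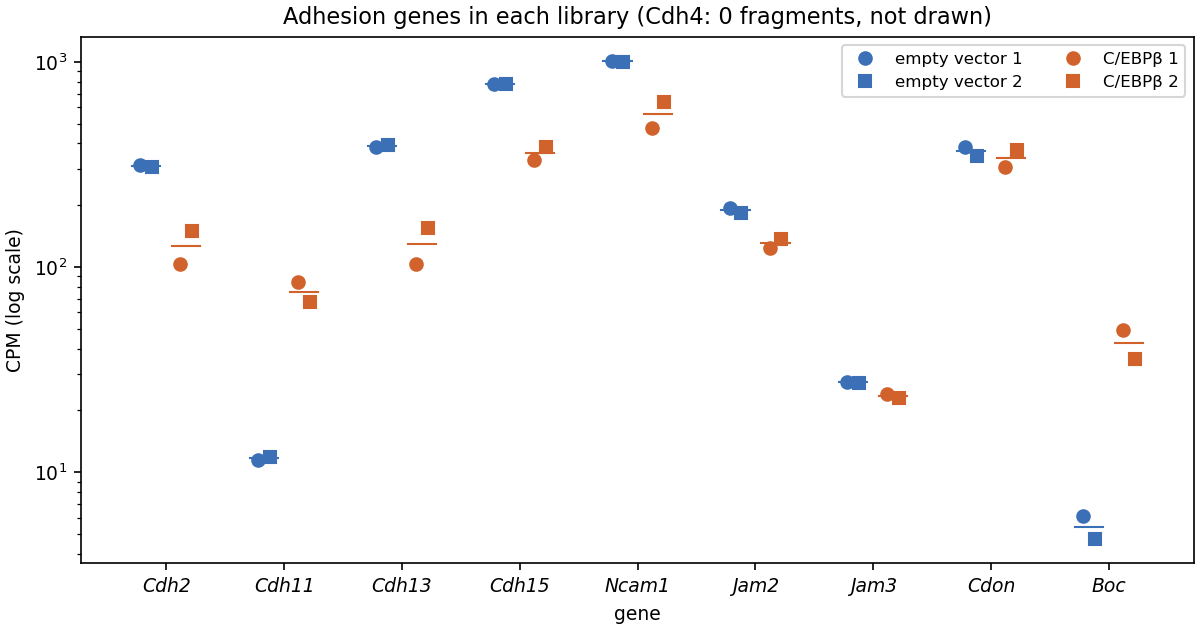
CPM of the 9 detected receptors in each library on a log scale, with circles for replicate 1, squares for replicate 2 and lines for the group means. The empty-vector libraries (blue) lie above the overexpressing ones (orange) for 6 genes, below them for Cdh11 and Boc, and among them for Cdon.

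The RefSeq promoter table for GRCm38.p6 held a window for 2 of the 10 genes, Cdh15 and Cdon, each of 300 bases and ending 50 bases past a start site. The windows were searched on both strands for the E-box CANNTG, to which myogenic factors of the MyoD family bind, for its form CAGCTG, which is contained in it, for the C/EBP-type motif TTNNGCAA and for the MEF2 motif. The Cdh15 window (chr8:122848124-122848423, plus strand) held 4 E-boxes and no match to the other motifs. Its RefSeq start site (122848374) lies 408 bases downstream of the start of the single transcript that GENCODE M21 gives for Cdh15, and all bases of the window are exonic there. The E-boxes are shown in capitals with 12 bases on either side, 5′ to 3′, and their first base is counted from the RefSeq start site.
Cdh15, E-box at -236: aggcactgatcaCATATGctgtcactcaga
Cdh15, E-box at -135: caggcccacctaCATGTGctgtcactcatc
Cdh15, E-box at -32: cgccccaccacaCACGTGcagtcccttggc
Cdh15, E-box at -2: ctgctccccaagCACTTGcgctgtcactca

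The Cdon window (chr9:35451826-35452125, plus strand) held none of the 4 motifs. Its start site is shared with a GENCODE M21 transcript and lies 30948 bases downstream of the first start site of that gene. The stretch before its first exonic base (chr9:35451826-35452044) lies inside the gene but outside its exons. The Cdh15 window is wholly exonic, so the windows are of unlike kinds and no contrast is drawn between them. The Cdon stretch is shown in lower case, since nothing in it matched.
Cdon, first 219 bases: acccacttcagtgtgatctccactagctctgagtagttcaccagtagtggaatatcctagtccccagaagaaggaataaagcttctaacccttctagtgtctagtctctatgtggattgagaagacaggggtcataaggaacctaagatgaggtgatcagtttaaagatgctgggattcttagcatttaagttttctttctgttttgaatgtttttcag
Of 32851 promoter windows of the same length, 72.3% held CANNTG, 16.3% CAGCTG, 10.8% TTNNGCAA and 3.19% the MEF2 motif, in any number of copies. How many windows held 4 copies of CANNTG was not counted. A match describes letters in a window and not a bound site.

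Cdh15, the muscle cadherin, was the most abundant of the 10 per length in both groups. In GRCm38 the gene (ENSMUSG00000031962) occupies chromosome 8, plus strand, 122847966 to 122867397. It was counted at 777 CPM in both empty-vector libraries (SD 0.312, n = 2) and at 332 and 385 CPM in the overexpressing ones. The overexpressing libraries were both below the controls, which differed from each other by far less. The log2 fold change of Cdh15 came to -1.12 (standard error, SE, 0.11, edgeR adjusted p = 0.000219). The fold was 2.17 lower, with a 95% interval from 1.81 to 2.60. In bulk libraries such as these, fewer cells that express a gene and less RNA per cell cannot be told apart.

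Cdh2, N-cadherin, is the classical cadherin that myoblasts share with neurons and many mesenchymal cells. It lies on chromosome 18 from 16588877 to 16809246 on the minus strand (ENSMUSG00000024304). Its level was 316 and 309 CPM in the controls and 103 and 149 CPM in the overexpressing libraries. The groups were well apart, though the overexpressing libraries differed from each other by 0.53 on the log2 scale. The log2 fold change was -1.31 (SE 0.17, edgeR adjusted p = 0.00157), a 2.48-fold lower level with a 95% interval from 1.86 to 3.29.

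Cdh13, T-cadherin, is anchored in the membrane by a lipid and lacks the cytoplasmic tail through which classical cadherins bind catenins. The gene (ENSMUSG00000031841) spans chromosome 8 from 118283733 to 119324921 on the plus strand. It stood at 386 and 393 CPM in the controls against 104 and 156 CPM in the overexpressing cells. This was the deepest fall among the receptors, with a log2 fold change of -1.59 (SE 0.19, edgeR adjusted p = 0.00133) and a 95% interval from -2.05 to -1.12. The intervals of Cdh13, Cdh2 and Cdh15 overlapped, and the differences between their fold changes were not tested.

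Cdh11, a cadherin of mesenchymal and bone-forming cells also called OB-cadherin, moved the other way. It lies on chromosome 8 from 102632095 to 102785642 on the minus strand (ENSMUSG00000031673). The controls held 513 and 598 fragments, or 11.5 and 11.8 CPM, and the overexpressing libraries 4408 and 2460 fragments, or 84.4 and 67.3 CPM. Both overexpressing libraries were several times above both controls. The log2 fold change was 2.70 (SE 0.12, edgeR adjusted p = 6.55e-06, 95% interval 2.42 to 2.98), which ranked 416 from the top among the 15886 genes tested. Of the 50-base windows of its transcripts 2.07% occur in transcripts of other genes, against at most 0.205% for the other receptors.

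Cdh4, R-cadherin of retina and brain, had 0 fragments in all 4 libraries (chromosome 2 from 179442431 to 179899373, plus strand, ENSMUSG00000000305). A count of 0 allows up to 3 fragments, which corresponds to between 0.0574 and 0.0820 CPM in these libraries, for counting error only. Of 21734 protein-coding genes in the files 5308, or 24.4%, likewise had no fragment in any library.

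Per length, the sum of the 4 detected cadherins among the 10 receptors was lower in the overexpressing cells, and Cdh15 remained its largest part. They summed to 314 and 314 CPM per kilobase of exon in the controls and to 133 and 158 in the overexpressing libraries. Cdh15 made up 76.2% and 76.2% of this sum in the controls and 76.4% and 74.8% in the overexpressing libraries, and the groups overlapped. The share of Cdh11 went from 0.412% and 0.424% to 7.10% and 4.77%, while that of Cdh13 went from 10.9% and 11.2% to 6.91% and 8.75%. The share of Cdh2 went from 12.5% and 12.2% to 9.59% and 11.7%. Shares of Cdh11, Cdh13 and Cdh2 did not overlap between the groups. The Cdh2 level per length was 30.3 and 28.8 times that of Cdh11 in the controls and 1.35 and 2.45 times in the overexpressing libraries. Shares and ratios carry no test, because with 2 libraries on each side the smallest 2-sided p of an exact permutation test is 0.333.

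**Figure D2:**
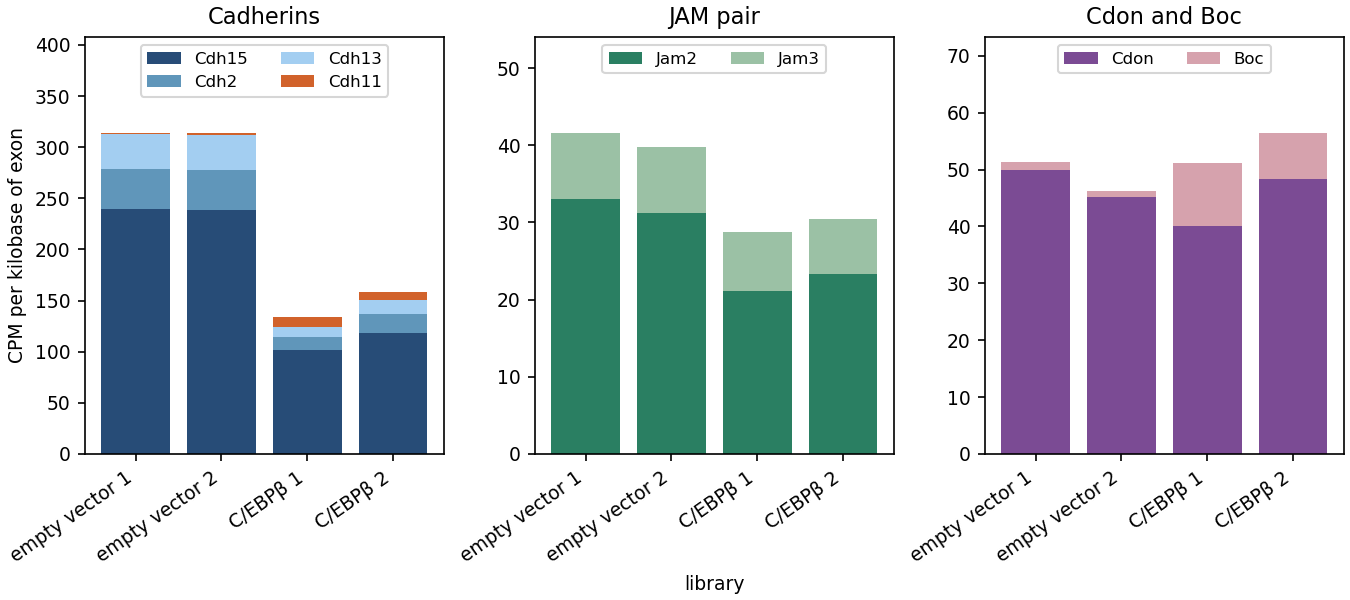
CPM per kilobase of exon in each library, stacked for the 4 detected cadherins, for Jam2 and Jam3, and for Cdon and Boc, each panel with its own axis from 0. The cadherin stack falls from 314 in both controls to 133 and 158, whereas the stack of Cdon and Boc stays between 46.3 and 56.4 with a larger part from Boc.

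Ncam1, the neural cell adhesion molecule, is also carried by myoblasts and newly formed myotubes. Its gene (ENSMUSG00000039542) lies on chromosome 9 from 49502136 to 49798925 on the minus strand. It had the highest CPM of the 10, with 1013 and 996 CPM in the controls and 474 and 637 CPM in the overexpressing libraries. The groups did not overlap, and overexpressing replicate 2 lay nearer to the controls. The log2 fold change was -0.85 (SE 0.15, edgeR adjusted p = 0.00290), a 1.81-fold lower level with a 95% interval from 1.42 to 2.30. The gene-level counts do not separate the splice forms of Ncam1.

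Jam2 and Jam3, which encode JAM-B and JAM-C, bind each other across cell contacts. Jam2 (chromosome 16 from 84774123 to 84825928, plus strand, ENSMUSG00000053062) stood at 194 and 183 CPM in the controls and 124 and 137 CPM in the overexpressing libraries. It fell, with a log2 fold change of -0.53 (SE 0.09, edgeR adjusted p = 0.00226, 95% interval -0.74 to -0.33). Jam3 (chromosome 9 from 27097384 to 27155421, minus strand, ENSMUSG00000031990) stood at 27.5 and 27.3 CPM against 24.2 and 23.0 CPM. Its groups did not overlap, but it did not pass over all genes, with a log2 fold change of -0.22 (SE 0.09, edgeR adjusted p = 0.0848). The 95% interval of Jam3 ran from -0.42 to -0.01, that is, from a 1.34-fold to a 1.01-fold lower level. In the authors' deposited table Jam3 has a log2 fold change of -0.28 and an adjusted p of 0.0319. Jam2 exceeded Jam3 per length 3.84-fold and 3.66-fold in the controls and 2.80-fold and 3.25-fold in the overexpressing libraries.

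Cdon, the receptor also called CDO, was the least changed of the 9. Its gene (ENSMUSG00000038119) occupies chromosome 9, plus strand, 35421128 to 35507652. It stood at 386 and 349 CPM in the controls and 309 and 374 CPM in the overexpressing libraries, and the groups overlapped. Its log2 fold change was -0.11 (SE 0.12, edgeR adjusted p = 0.505), and the 95% interval ran from -0.38 to 0.17. Without overexpressing replicate 1 the sign turned, with a log2 fold change of 0.027.

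Boc, the close relative of Cdon, had the largest fold change of the receptors. It lies on chromosome 16 from 44485049 to 44558897 on the minus strand (ENSMUSG00000022687). The controls held 273 and 239 fragments, or 6.13 and 4.73 CPM, and the overexpressing libraries 2570 and 1305 fragments, or 49.2 and 35.7 CPM. The groups were far apart, and within each group replicate 2 was the lower. The log2 fold change was 2.97 (SE 0.20, edgeR adjusted p = 0.000118, 95% interval 2.49 to 3.46), a 7.85-fold higher level, which ranked 357 from the top. Per length Boc made up 2.68% and 2.29% of the sum of Cdon and Boc in the controls and 21.6% and 14.2% in the overexpressing libraries. That sum itself was 51.3 and 46.3 CPM per kilobase in the controls and 51.1 and 56.4 in the overexpressing libraries, with overlapping groups. Cdon remained 3.62 and 6.04 times as abundant as Boc per length there, after 36.3 and 42.6 times in the controls.

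**Figure D3:**
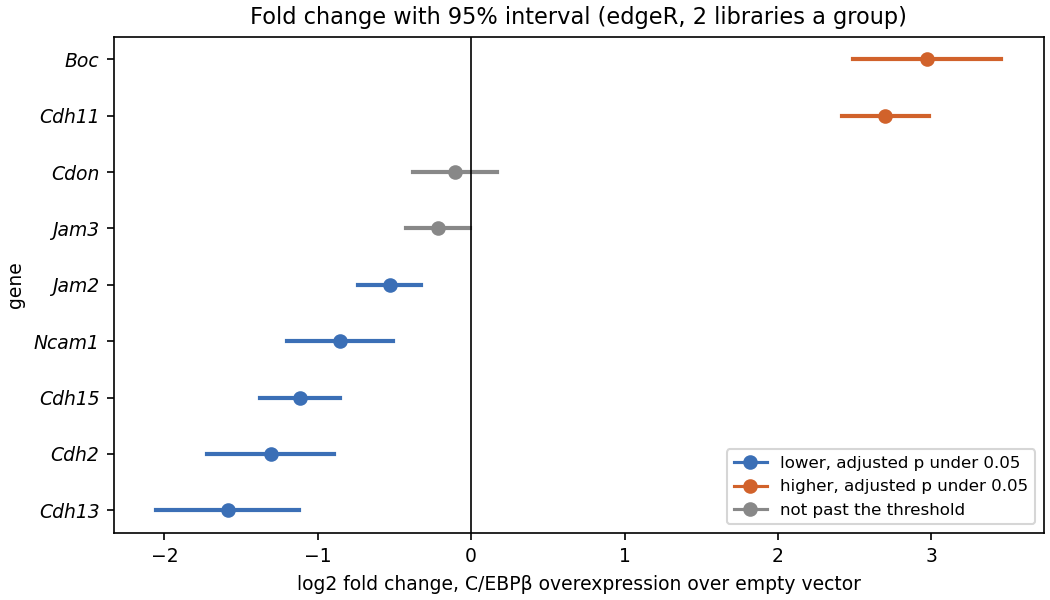
log2 fold change of overexpressing over empty-vector libraries for the 9 tested receptors, with points for the edgeR estimate and bars for the 95% interval. The intervals of the 5 genes that fell lie below 0 and those of Cdh11 and Boc above 2, while Jam3, with an interval from -0.42 to -0.01, and Cdon (both grey) did not pass the adjusted threshold.

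Ordered by CPM per kilobase, the controls ran from Cdh15 (239 ± 0.0959, SD, n = 2) through Ncam1 (116 ± 1.37), Cdon (47.6 ± 3.34), Cdh2 (38.7 ± 0.617), Cdh13 (34.7 ± 0.432), Jam2 (32.1 ± 1.26) and Jam3 (8.56 ± 0.0437) to Cdh11 (1.31 ± 0.0250) and Boc (1.22 ± 0.222). The libraries of neighbours in this order were apart except for Cdh11 and Boc. That spread does not cover the choice of exon length, on which the order depends. By CPM alone the controls had more Cdh13 (mean 389) than Cdh2 (mean 312). In the overexpressing cells the order began again with Cdh15 (110 ± 11.7), Ncam1 (64.1 ± 13.4) and Cdon (44.2 ± 5.93), followed by Jam2 (22.2 ± 1.54), which now stood above Cdh2 (15.6 ± 4.03). Cdh2, Cdh13 (11.5 ± 3.28), Boc (9.54 ± 2.15) and Cdh11 (8.52 ± 1.36) followed, each overlapping with the next. Jam3 (7.36 ± 0.262) came last of the detected genes, though its higher library (7.55) lay just under the lower one of Cdh11 (7.56).

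In the authors' deposited table, which covers the same comparison but whose libraries are not stated, all 9 detected receptors have the same sign as here. The log2 fold changes there are -1.18 for Cdh15, -1.37 for Cdh2, -1.65 for Cdh13, 2.60 for Cdh11, -0.91 for Ncam1, -0.59 for Jam2, -0.17 for Cdon and 2.86 for Boc. Cdh4 has no row in it.

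The 2 overexpressing libraries were not alike in how far the receptors moved. For all 7 receptors that passed, replicate 2 lay nearer to the control mean than replicate 1, as it did for 75.7% of the 6864 genes that passed, 77.1% of those lower and 74.3% of those higher. Replicate 2 also had less Cebpb (442 against 502 CPM) and more of the 10 muscle markers, which summed to 10870 CPM against 6694 CPM in replicate 1 and to 24483 and 27146 CPM in the controls. Of these muscle markers 9 fell, among them Acta1 and Myh3, embryonic myosin, and Myf5 rose. Over all genes tested 20.9% fell and 22.3% rose. The 8 fibroblast markers summed to 630 and 556 CPM in the controls, 2280 CPM in overexpressing replicate 1 and 1703 CPM in replicate 2. Postn alone made up most of the sum in the overexpressing libraries (1369 and 870 CPM), against 32.2 and 28.5 CPM in the controls. Of the 6 of them tested 4 rose, against 22.3% of all genes tested. Among the 4 were Postn, periostin (log2 fold change 5.21), and Col1a1, a collagen chain (0.64). Lum, lumican, fell (-1.56, edgeR adjusted p = 0.0111), and Dcn, decorin, did not pass (0.34, edgeR adjusted p = 0.128). Postn ranked among the 2 most abundant of the list through the overexpressing cells, since in the controls its mean was 30.3 CPM against 228 CPM for Dcn. Of the other 2 listed, Thy1 stood at most at 0.0673 CPM and Tcf21 at 0. The part of these marker levels in the receptor changes was not tested.

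Endothelial, epithelial and myeloid markers each summed to at most 4.27 CPM in a library. The 7 endothelial markers summed to between 1.20 and 2.29 CPM, with Tie1 at 0. Averaged over all 4 libraries Egfl7 and Cldn5 were the highest, with Cldn5 leading in the controls (0.853 CPM) and Egfl7 in the overexpressing cells (1.02 CPM). The 6 epithelial markers summed to 2.57 to 2.76 CPM in the controls and 0.211 to 0.520 CPM in the overexpressing cells, most of it from Cdh1, with Epcam at 0 and Cldn4 at most at 0.0673 CPM. The 6 myeloid markers summed to between 3.05 and 4.27 CPM, mostly Cd68, with Adgre1 and Tyrobp at 0. Csf1r was next in the mean of all libraries, whereas in the controls Itgam (0.470 CPM) stood above it (0.366 CPM). The 7 neural and Schwann cell markers were higher, and among them L1cam and Tubb3 made up most of the 79.8 and 86.1 CPM in the controls and 47.1 and 41.5 CPM in the overexpressing cells, and the defining gene Sox10 had at most 0.0198 CPM.

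Other genes of the cadherin family rose more often than they fell. Of 12 with a mean of at least 1 CPM over all libraries, out of 37 listed, 6 rose and 2 fell. The median log2 fold change of the 12 was 0.28. Because this mean takes in both groups, Dchs1 reached it through the overexpressing cells alone (0.612 CPM in the controls, 3.50 CPM there). Cdh1 reached it through the controls alone (2.57 against 0.323 CPM). Without division by length, the 37 together summed to 712 and 682 CPM in the controls and to 1050.1 and 1084 CPM in the overexpressing libraries. On that scale the sum of Cdh2, Cdh11, Cdh13 and Cdh15 went the opposite way, from 1490 and 1490 to 623 and 758 CPM. Most of the rise of the 37 came from Fat1, Fat4 and Clstn1, the last going from 240 and 213 to 302 and 284 CPM. Among all 12657 genes at that level 46.8% passed, 23.7% higher and 23.0% lower, and their median was 0.0013. Fat4 and Fat1, giant cadherins, rose from 15.4 and 13.8 to 79.7 and 86.4 CPM and from 125 and 139 to 350 and 368 CPM. Dchs1, the cadherin that binds Fat4, rose as well (log2 fold change 2.54, edgeR adjusted p = 0.000556), as did the protocadherin Pcdh18 (1.01). Cdh1, E-cadherin, fell from 2.65 and 2.49 to 0.153 and 0.492 CPM.

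Catenins and other adaptors on the inner side of cadherins moved mostly down. Of 16 at that level, out of 20 listed, 10 fell and 3 rose, with a median of -0.39. Over all genes at that level 23.0% fell and 23.7% rose. Jup, plakoglobin, fell from 463 and 465 to 136 and 165 CPM (log2 fold change -1.63, SE 0.11, edgeR adjusted p = 3.69e-05). The plakophilins Pkp4 and Pkp1 fell too (-1.21 for both), and so did Ctnna1, α-catenin (-0.55). Ctnnb1, β-catenin, stood at 721 and 690 CPM against 798 and 802 CPM and did not pass (0.18, edgeR adjusted p = 0.194), nor did Ctnnd1, p120-catenin (-0.11). The 3 adaptors that rose became 1 without either control library or without overexpressing replicate 2.

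Other immunoglobulin adhesion molecules went both ways. Of 19 at that level, out of 33 listed, 7 rose and 8 fell, with a median of -0.05. The shares over all genes at that level were 23.7% higher and 23.0% lower. Emb, embigin, rose from 20.2 and 16.0 to 269 and 215 CPM (log2 fold change 3.74, SE 0.16). Cxadr, a relative of the JAM proteins and receptor of coxsackievirus and adenovirus, rose from 4.64 and 4.71 to 20.6 and 15.3 CPM, and Robo1, a receptor of Slit ligands, rose by 0.92 on the log2 scale.

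Partners of Cdon and Boc were also divided. Of 18 at that level, out of 25 listed, 6 rose and 6 fell, with a median of 0.05, and the 6 that fell became 3 without empty-vector replicate 2 or without overexpressing replicate 1. Gas1, which acts with Cdon and Boc as a Hedgehog co-receptor, rose from 412 and 288 to 937 and 859 CPM (log2 fold change 1.36, edgeR adjusted p = 0.000989). Gli2, a transcription factor of Hedgehog signalling, rose from 0.224 and 0.257 to 2.55 and 2.90 CPM. Its controls held only 10 and 13 fragments, and Gli2 reached a mean of 1 CPM through the overexpressing cells alone. Ptch1 rose too (log2 fold change 1.06). Gli1, at a mean of 0.411 CPM over all libraries, did not pass (0.41, edgeR adjusted p = 0.397). Neo1, neogenin, a netrin receptor that binds Cdon, fell (-0.30, edgeR adjusted p = 0.0316), as did the netrins Ntn1 (-0.75) and Ntn4, which went from 42.8 and 44.3 to 15.8 and 15.9 CPM. The ligand Shh had no fragment in any library.

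Genes whose products cut or modify these receptors changed little. Of 12 tested, all at that level, 2 rose and none fell, with a median of 0.01. They were Psen2, a presenilin (log2 fold change 0.29), and St8sia4, which adds polysialic acid to Ncam1 (2.31, SE 0.56, edgeR adjusted p = 0.0168). St8sia4 was low, at 9 and 23 fragments in the controls and 53 and 88 in the overexpressing cells. It reached a mean of 1 CPM through the overexpressing cells alone (0.328 CPM in the controls, 1.71 CPM there). St8sia4 lost its call without empty-vector replicate 1 (edgeR adjusted p = 0.0886), and Psen2 without empty-vector replicate 1 (0.0771), empty-vector replicate 2 (0.0974) or overexpressing replicate 2 (0.103). With library sizes alone 4 genes of this list rose, and without empty-vector replicate 1 none did.

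**Figure D4:**
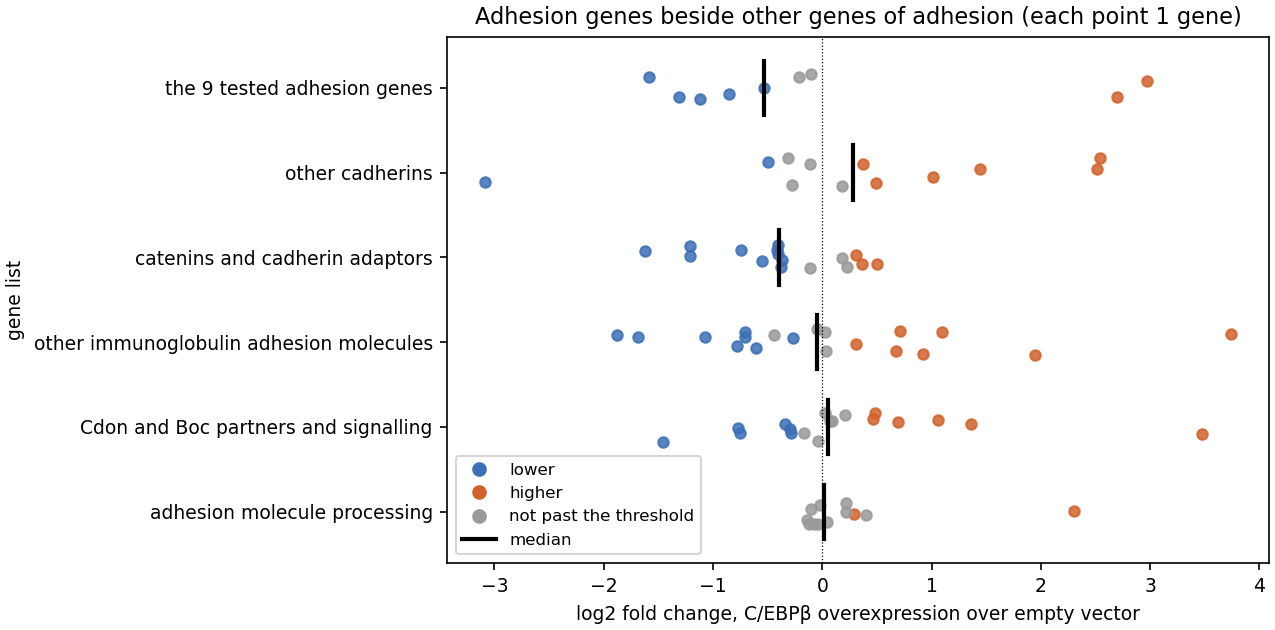
log2 fold change of overexpressing over empty-vector libraries for the 9 tested receptors and, with a mean of at least 1 CPM, for 5 lists of related genes, each point 1 gene and each black line a median. The receptors spread from -1.59 to 2.97, and the catenins and adaptors lie mostly below 0. The processing genes cluster near 0 apart from St8sia4. Dchs1, Gli2 and St8sia4 reached a mean of 1 CPM through the overexpressing libraries alone, and Cdh1 through the controls alone.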

How the data were processed

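For the 4 libraries the authors deposited unnormalised fragment counts of every gene, with its exon length. The submitters' processing notes name HISAT2 2.0.4, GRCm38 and featureCounts 1.4.6. The version of featureCounts in the headers is another one, 1.5.1. Counting was paired and on the reverse strand against GENCODE M12, per the file headers. A further deposited table gives, per the file headers, a mean signal, a log2 fold change, a test score and p-values, and the submitters' processing notes also name DESeq2. Symbols came from a reference table of gene names that matched 49326 of 49585 identifiers.

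Genes were filtered with filterByExpr (minimum count 10, minimum total 15), expressed as CPM on TMM-scaled library totals and compared with edgeR 4.0.16 in R 4.3.3 (glmQLFit, robust, glmQLFTest, 2-sided), adjusted over all genes by Benjamini-Hochberg. SE values come from the F statistic and intervals from its degrees of freedom at 95%. Levels between genes are CPM divided by exon length. No same-strand gene of the count annotation overlaps the exons of a receptor. DESeq2 1.42.0, limma-voom (limma 3.58.1), other scalings and filters, a replicate block and leaving out each library were tried. The receptors and gene lists were chosen with earlier results of these data known. All 10 receptors are named. For each pathway list the rule names the 3 genes with the smallest p among those that passed, and for each marker list the 2 most abundant genes. Dchs1, Clstn1, Ctnna1, Ctnnb1, Ctnnd1, Gas1, Ptch1, Gli1, Neo1 and Shh were named after their values were seen. So were Myf5, Lum, Dcn, Itgam and the markers at or near 0.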

Additional observations from a re-analysis of the deposited data

How the results depend on the processing

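All 7 receptors that passed kept their direction and their call under each of 12 alternatives, with the highest adjusted p at 0.0345 (Cdh13), and the counts stayed at 2 higher and 5 lower. Jam3 and Cdon passed under none of them: the adjusted p of Jam3 ran from 0.0673 to 0.249 and that of Cdon from 0.0645 to 0.901. With single libraries left out, the log2 fold change of Cdon ran from -0.27 to 0.027, the latter without overexpressing replicate 1. Over all genes, leaving out single libraries gave 4005 to 7414 genes past the threshold, 2169 to 3712 higher and 1836 to 3702 lower, with the lowest counts without empty-vector replicate 2, and the cause was not tested. Deviations of equally numbered libraries were weakly correlated (Pearson's r = 0.214 across 12657 genes, which are not independent replicates), the labels do not tie equal numbers to a shared culture, and a replicate block gave 7677 genes and the same 7 receptors.

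Without division by length, shares move by construction. In the controls and the overexpressing cells, Cdh15 then made up 52.1% and 52.1% of the cadherin sum, Cdh2 20.9% and 18.1%, Cdh13 26.1% and 18.6% and Cdh11 0.783% and 11.2%. Jam2 made up 87.3% and 84.7% of its pair and Cdon 98.5% and 88.8% of its pair. Among the markers, Myh3 lost its call without either control library or without the low-count filter (adjusted p = 0.0881, 0.110 and 0.160) and Acta1 without empty-vector replicate 2 (0.0522). With 2 libraries a group, the 95% interval of Cdon still spans log2 fold changes from -0.38 to 0.17.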
